A study of Mus musculus with 4 samples.

Results

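Open chromatin was described here over 8 genes of hepatic glutamine, glutamate and ammonium handling, Glul, Slc1a2, Rhbg, Oat, Gls2, Glud1, Slc38a3 and Slc38a4, out of 20780 autosomal protein-coding genes. They were chosen by name, for their place in the metabolic zonation of the liver lobule, and all 8 passed the filter on low levels used below. Single-nucleus ATAC-Seq (scATAC-Seq) libraries had been made from mouse hepatocytes isolated by collagenase perfusion, a preparation that enriches hepatocytes but can carry over other liver cells. The mice were 10 to 12 weeks old and on a normal diet, male C57BL/6J animals by the study's methods, with no engineered allele named. The 4 groups were undamaged liver (PHx 0 h) and liver taken 48, 72 and 96 h after PHx (partial hepatectomy, an operation in which some of the liver lobes are cut out so that the remnant regrows). Each group was 1 library. The 0 and 48 h libraries came from 1 hepatocyte preparation each, that of 48 h from 1 mouse, and the sources do not state whether animals were pooled at 72 and 96 h. Differences between times are therefore differences between single libraries, and no test was possible for any of them.

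Hepatocytes around the central vein capture ammonium that escaped urea synthesis and fix it into glutamine with glutamine synthetase, the product of Glul, in a ring of cells that is only a few cells wide. They are supplied by the glutamate transporter GLT-1 (Slc1a2), the ammonium transporter Rhbg and ornithine aminotransferase (Oat), which yields glutamate from ornithine by way of its semialdehyde. Periportal hepatocytes do the reverse with liver glutaminase (Gls2), which releases ammonium for the urea cycle. Glutamate dehydrogenase (Glud1) interconverts glutamate and 2-oxoglutarate, and SNAT3 (Slc38a3) and SNAT4 (Slc38a4) carry glutamine and other neutral amino acids across the plasma membrane.

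The level of a gene was the number of transposase cut sites in peaks touching its body or the 2 kb upstream of it, summed over barcodes with at least 1000 counts (called nuclei here) and given as CPM, which is counts per 1000000 counts in peaks of those barcodes. There were 3977, 3892, 4256 and 3224 such nuclei at 0, 48, 72 and 96 h, with 136582768, 62000846, 24724883 and 14935507 counts in all. Peaks had been called in each library on its own and covered 153.6, 179.0, 141.2 and 60.9 Mb, so the length of DNA read for a gene changed between libraries and is given beside each level. With depth falling from 0 to 96 h, a comparison of times free of this would need 1 peak set shared by all libraries, which was not used here. Between 681 and 882 barcodes were shared by any 2 libraries, and at 0 h 2848 of 3719 nuclei with at least 2000 counts had a barcode seen in no other library. Leaving shared barcodes out moved the log2 ratios of the 8 genes by -0.06 to 0.17 and changed no count of genes past 2-fold. All 10 hepatocyte markers were covered in every library, with summed levels of 4029, 4901, 3876 and 5052 CPM. The endothelial list (8 of 8 covered throughout) summed to 367.5, 376.3, 415.8 and 198.7 CPM, and the Kupffer and immune list to 83.04, 158.9, 164.0 and 114.4, with Cd5l at 0 in every library and Clec4f and Adgre1 at 0 at 0 and 96 h. The stellate and mesenchymal list summed to 72.62, 115.3, 150.7 and 127.2, and the cholangiocyte list to 157.3, 127.7, 140.3 and 143.3. Clusters of low hepatocyte marker signal held 7.47, 5.55 and 7.35% of nuclei at 0, 48 and 72 h, and none was found at 96 h. Their part in the summed levels below was measured by leaving them out.

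Most of the 8 genes lay under long peaks in undamaged liver. At 0 h only 0.934% of peaks were longer than 10 kb, and 6 of the 8 genes touched at least 1 of them, as did 9.9% of the 13870 genes with a mean level of at least 10 CPM. Slc38a4 lay largely under a peak of 63393 bp, the 18th longest of 119839. Slc38a3 lay under a peak of 44811 bp, the 57th longest, which also reached the start of the neighbouring gene Gnat1 and into Sema3f. Glud1 touched a peak of 38665 bp, Gls2 a single peak of 20995 bp, Glul a single peak of 17552 bp and Oat peaks of 15146 and 10522 bp. The other two genes did not: Slc1a2, a gene of 132126 bp, had 26 peaks of which the longest spanned 9016 bp, and Rhbg had 5 peaks covering 4255 bp in all. Slc38a3 was also the most densely cut, at 19.4 CPM per kb of peak at 0 h. Gls2 followed at 10.1, then Slc38a4 at 9.60, Rhbg at 7.54, Glud1 at 7.41, Glul at 6.94, Oat at 5.56 and Slc1a2 at 3.57. Rhbg and Glud1 differed by less than the counting interval of the Rhbg level, which ran from 30.8 to 33.5 CPM around 32.1.

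The sequences of the elements that the results below turn on are shown here, 5′ to 3′ on the strand of the gene, in lower case with capitals only where a searched motif was found. Promoter stretches are the 250 bases before the RefSeq start (GRCm38.p6), and were matched for 5 of the 8 genes, Glul, Slc1a2, Oat, Glud1 and Slc38a4. That of Slc1a2 was cut before an annotated exon to 168 bases, so it ends short of the RefSeq start. Gls2, Slc38a3 and Rhbg were not matched. The peak stretches are the central 300 bases of 96 h peaks inside the genes, the library whose peaks were narrow enough to separate elements. For Glul the stretch is chr1:153904898-153905197 (+ strand), an intronic part of the peak with the highest pericentral to periportal ratio at 96 h, and for Gls2 it is chr10:128199381-128199680 (+ strand), from the peak with the lowest ratio, which spans an intron and the beginning of a coding exon. The Glul promoter is chr1:153899679-153899928 (+ strand), which an exon of a retained-intron transcript of Teddm2 overlaps on the other strand, the Slc1a2 promoter chr2:102706188-102706355 (+ strand) and the Oat promoter chr7:132576399-132576648 (- strand).
Glul promoter: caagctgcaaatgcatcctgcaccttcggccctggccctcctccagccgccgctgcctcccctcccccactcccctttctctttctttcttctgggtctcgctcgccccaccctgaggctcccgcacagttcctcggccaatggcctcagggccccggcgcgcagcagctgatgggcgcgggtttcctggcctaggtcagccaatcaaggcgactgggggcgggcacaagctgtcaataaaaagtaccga
Glul intronic element: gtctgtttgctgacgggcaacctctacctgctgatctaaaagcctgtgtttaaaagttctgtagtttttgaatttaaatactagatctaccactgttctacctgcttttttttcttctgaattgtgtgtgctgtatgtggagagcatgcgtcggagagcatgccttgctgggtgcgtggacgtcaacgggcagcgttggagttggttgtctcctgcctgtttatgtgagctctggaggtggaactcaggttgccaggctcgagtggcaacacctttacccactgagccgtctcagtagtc
Slc1a2 promoter: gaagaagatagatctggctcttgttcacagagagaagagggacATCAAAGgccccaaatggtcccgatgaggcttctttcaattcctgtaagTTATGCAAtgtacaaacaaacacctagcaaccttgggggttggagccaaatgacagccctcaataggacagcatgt
Oat promoter: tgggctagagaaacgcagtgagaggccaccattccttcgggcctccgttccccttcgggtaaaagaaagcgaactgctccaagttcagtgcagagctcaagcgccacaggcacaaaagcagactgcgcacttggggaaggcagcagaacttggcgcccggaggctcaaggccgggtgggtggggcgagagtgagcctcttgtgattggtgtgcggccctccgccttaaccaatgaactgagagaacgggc
Gls2 internal element: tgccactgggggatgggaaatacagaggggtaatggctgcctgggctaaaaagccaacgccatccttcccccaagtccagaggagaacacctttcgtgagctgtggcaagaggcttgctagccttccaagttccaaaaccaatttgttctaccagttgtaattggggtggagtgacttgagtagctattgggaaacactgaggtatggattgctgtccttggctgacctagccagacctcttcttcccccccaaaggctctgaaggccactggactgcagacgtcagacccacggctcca
Fixed letters were searched on both strands: CTTTGAT for TCF/LEF, the DNA-binding partners of β-catenin in Wnt signalling, TGTTTAC for FOXA, TTGCNNAA for C/EBP and CAAAGTCC for HNF4. The Slc1a2 stretch held a TCF/LEF match starting at base 44 and a C/EBP match starting at base 93 of the 168 shown, both on the opposite strand. These letters occur in 3.21% and 9.57% of 32817 RefSeq promoter windows of 250 bases. The other printed stretches held none of the 4 motifs. A match is a description of the letters and not evidence of binding.

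Glul, which encodes glutamine synthetase, changed little between libraries as a summed level. It stood at 122 CPM at 0 h, 133 at 48 h, 119 at 72 h and 138 at 96 h, with 95% counting intervals of 119 to 124, 129 to 137, 113 to 125 and 130 to 147. The log2 ratio to 0 h was 0.13, -0.04 and 0.18, and at 48 h the gene ranked at the 67th percentile of all genes. The covered length was 17552, 17546, 14951 and 9504 bp, so nearly the same stretch of DNA was read at 0 and 48 h. GENCODE places the gene (ENSMUSG00000026473) at chr1:153899944-153909723 on the + strand, and the first 3 libraries each covered it with 1 peak that also holds the start of the antisense gene Teddm2, whose cuts cannot be told apart from those of Glul. At 96 h the domain fell into 5 peaks. The one over the promoter held 62.2 of the 138 CPM, and the one past the 3' end (chr1:153909483-153912235) held 35.5.

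Slc1a2, the glutamate transporter, was at 110 CPM at 0 h, 149 at 48 h, 95.2 at 72 h and 80.8 at 96 h. Its covered length moved in the same order, 30972, 43482, 17143 and 6006 bp. The rise to 48 h (log2 ratio 0.43) came with 37 peaks against 26, and per kb of peak the level was 3.57 at 0 h and 3.43 at 48 h. The lower levels at 72 and 96 h (log2 ratios of -0.21 and -0.45) turned in regions of near-equal length, which had log2 ratios of 0.80 at 72 h (4 regions, 11.6 to 21.0 CPM) and 1.48 at 96 h (1 region, 1.93 to 7.16 CPM), where the genome medians were 0.30 and 1.27. The gene (ENSMUSG00000005089) spans chr2:102658659-102790784 on the + strand, and the GENCODE start lay outside every peak at 0 h. The peak over the RefSeq promoter printed above held 3.34 CPM at 0 h, 5.71 at 48 h and 3.28 at 72 h, and no peak was called there at 96 h. The strongest element was intronic (chr2:102743239-102746300 at 0 h) and carried 27.9 CPM.

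Rhbg, the ammonium transporter, was the lowest of the 8, at 32.1, 38.0, 39.5 and 43.1 CPM over 4255, 6228, 3906 and 2254 bp. The intervals of 48, 72 and 96 h overlapped one another and the 0 h interval lay below all of them. Oat was at 151 CPM at 0 h, 200 at 48 h, 129 at 72 h and 83.5 at 96 h, over 27072, 29656, 21422 and 6692 bp. Its 48 h rise was also seen in a region of near-equal length in both libraries, the far domain of 15146 bp at 0 h and 16013 bp at 48 h that runs past the 3' end, where the level went from 83.6 to 121 CPM (log2 ratio 0.53). Across 35049 such near-equal regions of the genome the median log2 ratio was -0.03, with quartiles of -0.22 and 0.14. Oat (ENSMUSG00000030934, chr7:132557478-132576398, - strand) lies within the GENCODE model of Fgfr2, and Rhbg (ENSMUSG00000104445, chr3:88242874-88254709, - strand) overlaps Gm38392, so cuts in these stretches belong to both models.

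Gls2, the periportal glutaminase, had fewer cut sites in each later library. Its levels were 212, 136, 123 and 94.6 CPM at 0, 48, 72 and 96 h, with counting intervals of 208 to 215, 132 to 140, 117 to 130 and 87.8 to 102 that did not overlap between 0 h and any later time. At 48 h the covered length had hardly changed (20995 and 19529 bp), and the log2 ratio of -0.64 lay at the 5.6th percentile of all genes. At 96 h the length was 4934 bp and the log2 ratio -1.16. The single 0 h domain, which also holds the start of Spryd4, was called as 3 peaks at 48 h, 7 at 72 h and 5 at 96 h. Per kb of peak, Gls2 went from 10.1 to 6.96 at 48 h and 8.15 at 72 h, and to 19.2 at 96 h. The gene (ENSMUSG00000044005) is at chr10:128194457-128210004 on the + strand.

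Glud1, used in both zones, was higher in all 3 later libraries. Its levels were 382, 590, 455 and 558 CPM over 51586, 52342, 39419 and 35525 bp. At 48 h the log2 ratio was 0.63 with the covered length almost equal, and the gene ranked at the 89.8th percentile. The 48 h peak was 1 domain of 52342 bp, the 25th longest of that library, that also holds the starts of Shld2 and Fam25c. The gene (ENSMUSG00000021794) is at chr14:34310727-34345265 on the + strand.

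The 2 amino acid transporters had the highest levels at 0 h and fewer cut sites afterwards. Slc38a3 was at 871, 722, 459 and 604 CPM over 44811, 44629, 29942 and 26937 bp. Between 0 and 48 h its peak kept nearly the same length, and the log2 ratio was -0.27, below the lower quartile of -0.22 of near-equal regions. Slc38a4 was at 639, 421, 265 and 348 CPM over 66563, 59879, 46613 and 29358 bp, with log2 ratios of -0.60, -1.27 and -0.88. Its promoter peak, the only region of near-equal length at 48 h, had a log2 ratio of 0.19 there (11.6 to 13.4 CPM). Both were lowest at 72 h and higher again at 96 h. Long peaks became rarer in the whole library: those over 10 kb were 0.934, 0.683, 0.298 and 0.201% of peaks at 0, 48, 72 and 96 h, while total counts per library fell as well, so a peak that splits cannot be told apart from shallower sequencing. Slc38a3 (ENSMUSG00000010064, chr9:107650634-107669530, - strand) was covered by peaks of 20706 and 6231 bp at 96 h, and Slc38a4 (ENSMUSG00000022464, chr15:96994820-97055956, - strand) had 2, 5, 15 and 22 peaks in the 4 libraries.

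**Figure D1:**
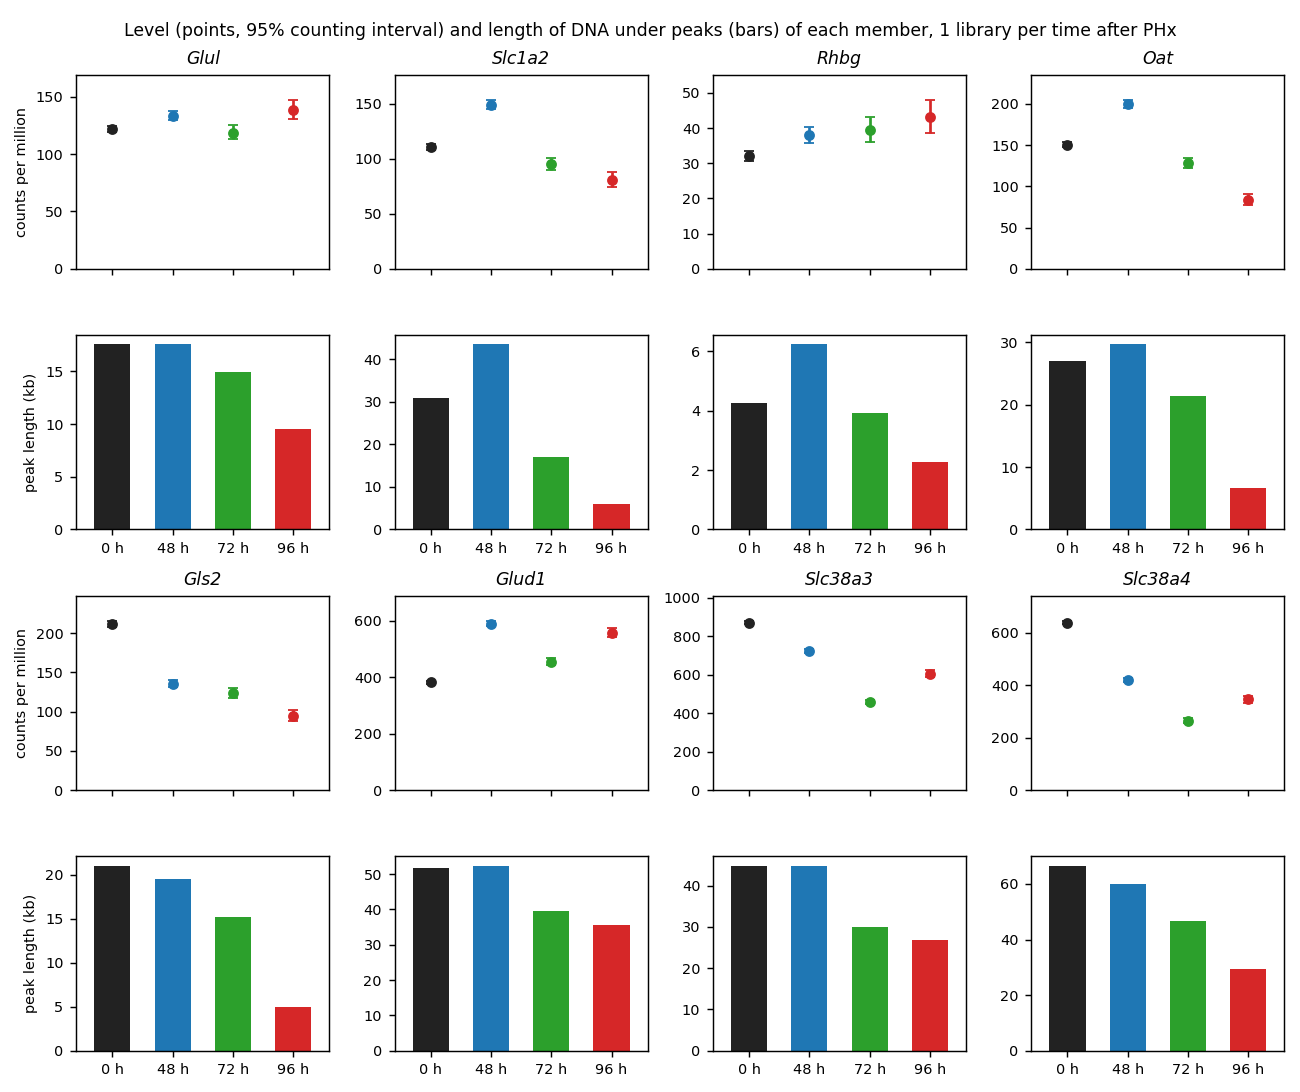
Levels of the 8 genes in CPM (points, with 95% counting intervals) and the length of DNA under their peaks in kb (bars) in the 4 libraries, 1 per time after PHx. Glul stayed between 119 and 138 CPM, Gls2 went down from 212 to 94.6, and covered length was shortest at 96 h for each gene.

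At a 2-fold threshold (pseudocount of 1 CPM), 0 of the 8 genes differed from 0 h at 48 h. At 72 h 1 was lower (Slc38a4, -1.27) and at 96 h 1 was lower (Gls2, -1.16), and 0 were higher at either time. Over the 13870 genes with a mean level of at least 10 CPM, 4.08% were at least 2-fold higher and 2.01% lower at 48 h, 8.15% and 6.28% at 72 h, and 4.2% and 8.54% at 96 h, so 1 of 8 was not read as particular to these genes. The median log2 ratio of the 8 was 0.18, -0.22 and -0.49 against -0.06, -0.05 and 0.07 for all genes. Neither call was kept when each peak was counted at most once per nucleus: Slc38a4 at 72 h then had a log2 ratio of 1.43 and Gls2 at 96 h of 0.49. The same count turned 48 h directions too, with Gls2 at 0.80, Slc38a3 at 0.68, Slc38a4 at 1.1 and Glud1 at -0.03. Such a count cannot exceed the number of peaks called over a gene, which was 1, 3, 7 and 5 for Gls2 and 2, 5, 15 and 22 for Slc38a4 at the 4 times, and it is given as a limit, not as a measure of opening. Slc38a3 turned at 48 h with 1 peak in both libraries, and the cause of the turned directions was not tested. For Slc38a3, under 1 peak at 0, 48 and 72 h, 89.2, 83.1 and 57.3% of nuclei had a count there, while the median depth of nuclei was 26005, 11629 and 4841 counts. Across all genes the log2 ratio of level followed the log2 ratio of covered length, with Pearson's r of 0.868, 0.901 and 0.834 (a description over genes, which are not replicates and here share the same libraries). In regions of near-equal length the median log2 ratio over the genome was -0.03 at 48 h, 0.30 at 72 h (23382 regions) and 1.27 at 96 h (1825 regions), so most stretches of unchanged length read higher at 96 h, and the part of this in the ratios of the 8 genes was not tested. At 48 h Gls2 (-0.64 at a log2 length ratio of -0.10) and Glud1 (0.63 at 0.02) differed at little changed length. Summed levels cannot tell fewer open nuclei from fewer cuts per open nucleus.

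**Figure D2:**
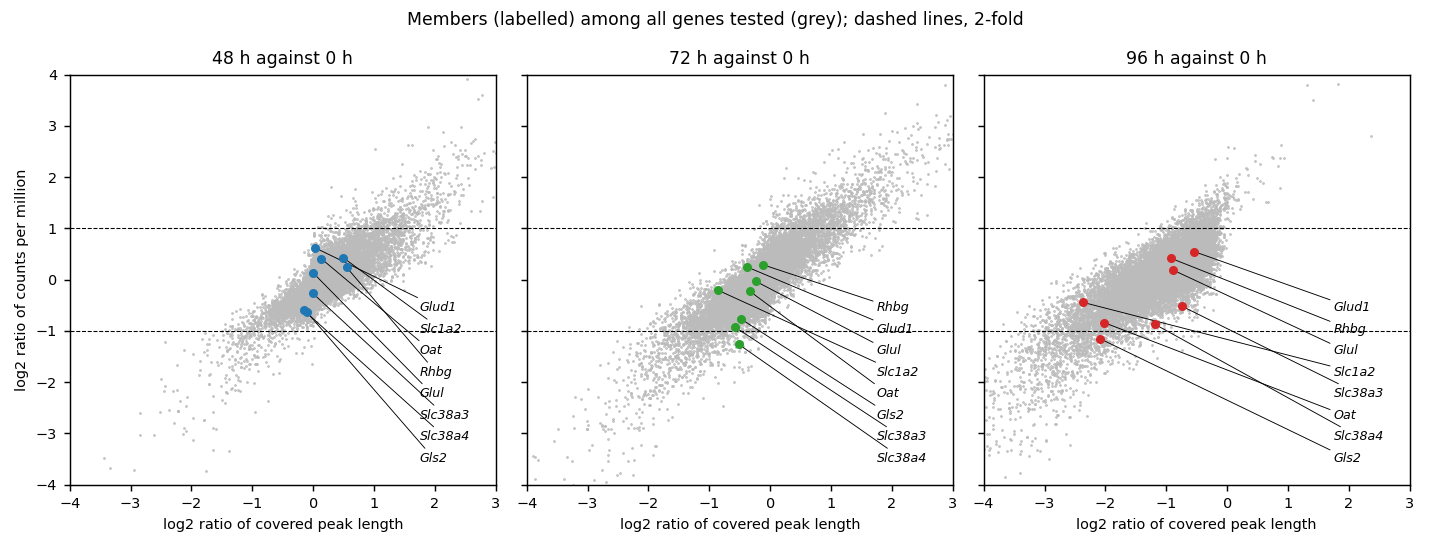
Log2 ratio of level to 0 h (vertical) against log2 ratio of covered peak length (horizontal) for the 13870 genes (grey) and the 8 genes (labelled) at each later time. Dashed lines mark 2-fold, and a few genes beyond the axes are not drawn. At 96 h nearly the whole cloud is at shorter lengths, and Gls2, Oat and Slc1a2 are among those with a log2 length ratio of -2.02 or lower.

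Within each library, nuclei could be ranked from periportal to pericentral without using the 8 genes. A zone score was taken as the counts over 10 pericentral genes (Cyp2e1, Cyp1a2, Gulo, Lgr5, Axin2 and others) minus those over 10 periportal genes (Cyp2f2, Hal, Sds, Pck1, Ass1 and others) in nuclei thinned to 2000 counts, and no peak was shared between the score and the 8 genes. The upper and lower 25% of nuclei are called pericentral and periportal here for that score alone. By counting intervals that did not overlap, Glul and Oat were higher in the pericentral nuclei in each of the 4 libraries, Slc1a2 at 0, 48 and 72 h, and Gls2 was higher in the periportal nuclei at 0, 48 and 72 h. By the same rule Glud1 was higher in the pericentral nuclei at 0 h and Rhbg and Slc38a3 at 48 h, and Slc38a3 was higher in the periportal nuclei at 72 and 96 h. In all, 4, 5, 3 and 2 of the 8 were higher pericentrally and 1, 1, 2 and 1 periportally at 0, 48, 72 and 96 h, where 12.3, 4.19, 1.86 and 1.22% of all genes outside the score were higher pericentrally and 8.89, 3.55, 1.69 and 1.09% periportally. The central 95% of genes outside the score had log2 ratios between -0.34 and 0.36 at 0 h, between -0.32 and 0.40 at 48 h, between -0.44 and 0.53 at 72 h, and between -0.55 and 0.64 at 96 h. Slc1a2 at 72 h (0.37, 91.6th percentile) and Gls2 at 96 h (-0.35, 7.6th percentile) lay within that range. No test across libraries or animals was possible, and the intervals cover counting error only.

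Glul was at 205 CPM (199 to 212) in the pericentral and 74.1 (69.8 to 78.5) in the periportal nuclei at 0 h, a log2 ratio of 1.46. At 48 h the values were 262 (251 to 273) and 58.6 (52.8 to 64.8), a log2 ratio of 2.14. The contrast was 0.91 at 72 h and 1.25 at 96 h, and Glul was at or above the 99.9th percentile of all genes outside the score in each library. The contrast at 48 h was therefore wider on both sides than at 0 h, while the summed level differed by only 0.13 on the log2 scale. In 10 equal groups of nuclei along the score, Glul at 0 h was between 72.5 and 118 CPM in the first 8 and then 187 and 264. At 48 h it was between 57.3 and 142 in the first 8 and then 226 and 361.

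Oat had log2 ratios of 1.93, 1.55, 1.33 and 0.76, and rose along all 10 groups at 0 h, from 59.3 to 332 CPM. At 96 h its pericentral and periportal levels were 107 (92.6 to 124) and 63.1 (51.4 to 76.6). Slc1a2 had log2 ratios of 1.20, 1.01, 0.37 and 0.13. Its pericentral and periportal intervals overlapped at 96 h, with 89.3 (75.7 to 105) against 81.5 (68.1 to 96.7). Gls2 ran the other way, with log2 ratios of -0.86, -0.75, -0.49 and -0.35. At 0 h it was at 148 (143 to 154) in the pericentral and 269 (261 to 277) in the periportal nuclei, and over the 10 groups it declined throughout, from 287 to 187 over the first 8 and then to 163 and 118. At 96 h the Gls2 intervals overlapped, 83.2 (70.2 to 97.9) against 107 (91.1 to 124).

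The contrasts of the remaining 4 genes lay within the central 95% of genes in each library. Rhbg, although a pericentral transporter by its known expression, had log2 ratios of 0.15, 0.36, 0.02 and 0.02, that of 48 h at the 96.5th percentile. Its peaks differed, however. At 0 h a peak near its start (chr3:88252660-88253289) had 1.20, at 3.62 CPM (2.81 to 4.59) against 1.02 (0.576 to 1.67). The other Rhbg peaks at 0 h had 0.19, 0.05, 0.40 and, over the start, -0.18. At 48 h the Rhbg peaks had 0.79, 0.17, -0.08 and 0.27. Over the whole gene, Glud1 had log2 ratios of 0.13, 0.05, 0.10 and 0.05. Slc38a3 had -0.02, 0.15, -0.24 and -0.21, with 782 CPM (764 to 801) against 705 (685 to 726) at 48 h and 426 (403 to 449) against 503 (476 to 530) at 72 h, and Slc38a4 had -0.05, -0.01, -0.02 and -0.19. The contrasts of Oat, Slc1a2 and Gls2 were smaller at 72 and 96 h than at 0 h, and the counts behind the score differed too: a nucleus had on average 2.87, 2.93, 2.34 and 1.66 counts over the pericentral list and 5.25, 4.22, 3.66 and 4.62 over the periportal list. The DNA read differed as well. A 9016-bp domain of Slc1a2, with a 0 h ratio of 2.23, was down to 331 bp at 72 h and had no peak at 96 h. The far domain of Oat, with a 0 h ratio of 2.31, covered 15146 bp at 0 h, 12190 at 72 h and 2025 at 96 h. The contrasts are therefore not over the same stretches at each time. The part of either in the smaller contrasts was not tested. The score also moved with depth, since pericentral nuclei had median counts of 32025 against 25245 at 0 h and 14568.5 against 11045.5 at 48 h. Leaving out clusters of low hepatocyte signal changed none of the 32 ratios beyond counting error, and leaving out barcodes found in another library moved them by -0.04 to 0.12.

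**Figure D3:**
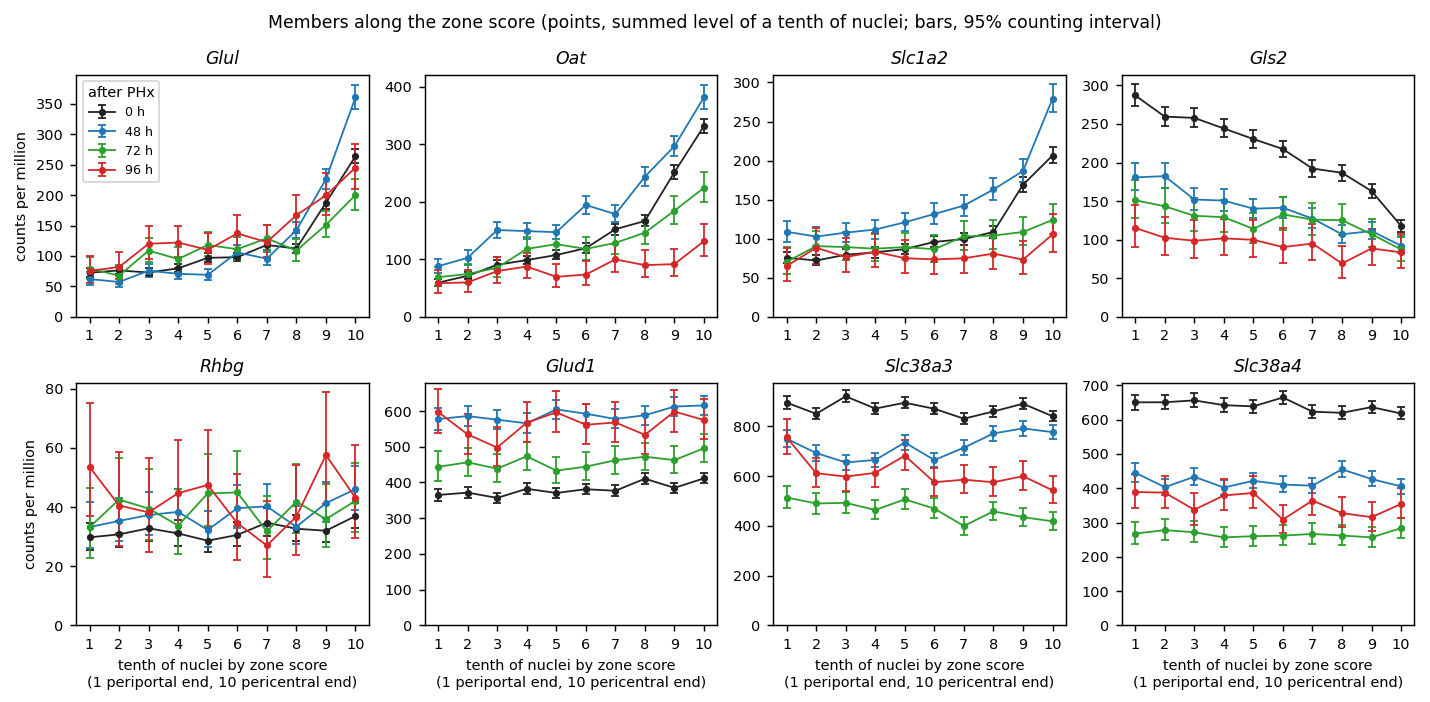
Levels of the 8 genes in 10 equal groups of nuclei ordered by zone score from the periportal end (1) to the pericentral end (10), in CPM with 95% counting intervals, 1 line per library. Glul at 48 h climbs from 62 to 361, Gls2 at 0 h declines from 287 to 118, and the transporters Slc38a3 and Slc38a4 stay flat by comparison.

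The zonal signal was not spread evenly over each gene. At 96 h, where Glul was split into 5 peaks, the promoter peak had a log2 ratio of 0.40 between pericentral and periportal nuclei, and the 4 others had 1.4, 2.29, 1.60 and 1.94. The highest was that of the intronic element printed above, at 11.6 CPM (7.06 to 17.8) in the pericentral and 1.56 (0.260 to 5.0) in the periportal nuclei. The peak past the 3' end was at 72.5 (60.4 to 86.3) against 18.1 (12.1 to 26), while the promoter was at 62.7 (51.4 to 75.6) against 47.1 (37.1 to 59.1). Oat at 0 h had 2.31 over the far domain and 1.46 over the domain that holds its start. At 96 h its far peak (chr7:132557908-132559672) had 1.73 and its promoter peak 0.79, but of the peaks between them 2 had 0.14 and 0.03 and 1 was higher pericentrally on only 9 against 2 counts, so the order seen for Glul did not hold for each Oat peak. For Slc1a2 at 0 h, a 9016-bp domain (chr2:102727571-102736586) had a ratio of 2.23, and the strongest intronic element had 0.36. The peak over the Slc1a2 RefSeq promoter had 2.04 at 0 h, at 7.19 CPM (6.03 to 8.51) against 0.985 (0.551 to 1.62). It had 1.06 at 48 h and 0.23 at 72 h. A low ratio over the promoter, seen for Glul at 96 h, therefore did not hold for Slc1a2 at 0 h. At Gls2 the promoter peak at 96 h had 0.10 and the 4 peaks downstream had -2.23, -0.35, -0.52 and -1.18. The lowest was the element printed above, at 2.60 (0.780 to 6.33) in the pericentral and 15.9 (10.4 to 23.4) in the periportal nuclei. It was picked for that ratio and rests on 9 against 51 counts. The intervals of the other downstream peaks overlapped, the -1.18 resting on 10 against 25 counts. At 48 h the 3 Gls2 peaks had -0.69, -0.97 and -0.55, and the middle one holds the printed element. The first holds the start, at 29.4 (25.9 to 33.3) against 48.1 (42.9 to 53.8), so the start was not without contrast at 48 h. The start peak at 72 h had -0.18, with overlapping intervals. At 72 h the peak over the element (chr10:128198613-128202718) had -0.49, and the peak at the 3' end (chr10:128208520-128213815) had -0.71.

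**Figure D4:**
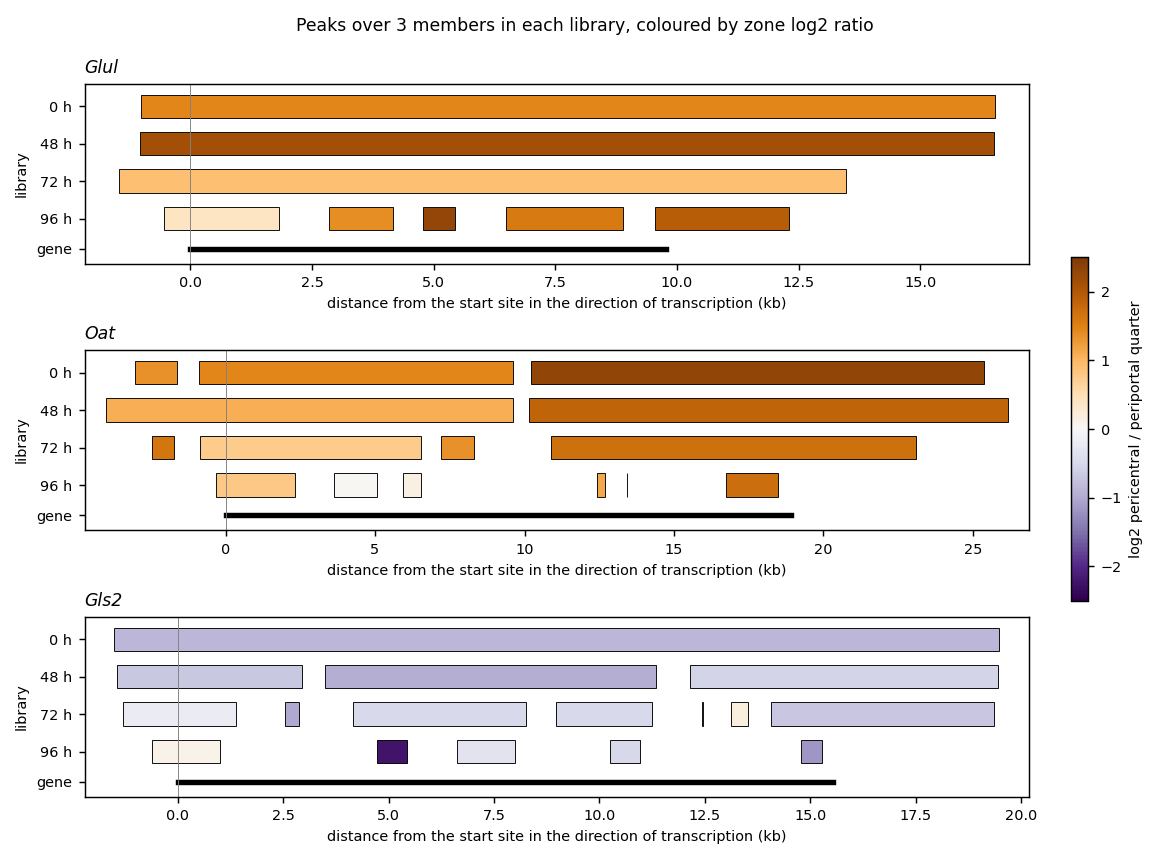
Peaks over Glul, Oat and Gls2 in each library, drawn by distance from the start site in kb and coloured by the log2 ratio of the pericentral to the periportal nuclei (orange, pericentral, purple, periportal). The black bar is the gene. At 96 h the Glul promoter peak (0.40) is paler than the 4 peaks downstream of it (1.4 to 2.29), and the Gls2 promoter peak (0.10) is close to white.

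By the ratio of variance to mean, Glul was also the most unevenly shared of the 8 between nuclei at 0 and 48 h. After thinning to 10000 counts (3044 nuclei at 0 h and 2170 at 48 h), its variance was 4.19 times its mean at 0 h and 7.41 times at 48 h, against medians of 1.46 and 1.69 over 5425 and 5114 genes. The 10% of nuclei richest in Glul held 54.0% of its counts at 0 h and 67% at 48 h, and 54.1% and 62.8% of nuclei had no count. At 0 h the top 10% for Oat and Slc1a2 held 48.1% and 46.4%, that for Gls2 29.7%, and that for Rhbg, which has the lowest mean, 59.9%. Oat and Slc1a2 had variances of 3.48 and 2.75 times their means at 0 h and 4.17 and 3.02 at 48 h. The other 5 genes were between 1.4 and 2.42 at 0 h and between 1.59 and 3.08 at 48 h. In the clusters built within each library, 1 cluster at 48 h (518 nuclei) had Glul as its leading gene, at 235.5 CPM against 70.98 to 125.7 in the other 3 clusters of hepatocyte signal, with Slc1a2 at 178.5 and Oat at 264.2. This is a description, since the clusters were built on these counts.

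The 8 genes differed in how far their levels fell short in clusters of low hepatocyte signal. At 0 h (297 nuclei) Glul was at 116 CPM (94.7 to 141) there and at 122 (119 to 125) in the hepatocyte-like clusters, and Oat at 137 (114 to 164) and 151 (148 to 154). Slc38a3 was at 263 (231 to 300) against 879 (872 to 886), Slc38a4 at 164 (139 to 193) against 645 (639 to 651) and Gls2 at 102 (82.0 to 125) against 213 (210 to 217). Slc1a2 was at 82.1 (64.3 to 103) against 111 (108 to 113), Glud1 at 231 (200 to 265) against 384 (380 to 389) and Rhbg at 20.4 (12.1 to 32.2) against 32.3 (30.9 to 33.6). At 48 h (216 nuclei) Slc38a3 was at 217 (173 to 269) against 729 (719 to 738), and Glul was at 133 in both. The intervals of Glul and Rhbg overlapped between the classes at 0 and 48 h, and those of Slc38a3, Slc38a4, Gls2 and Glud1 did not. In all 5 of the 8 genes were higher in the hepatocyte-like clusters at 0 h and 5 at 48 h, as were 17.0% and 10.9% of all genes, and 0 were higher in the others, against 42.6% and 23.6%. Those of Slc1a2 overlapped at 48 h, at 144 (108 to 187) against 149 (145 to 154), and not at 0 h. At 48 h Oat was at 138 (104 to 181) against 201 (196 to 206). At 72 h (313 nuclei) 3 of the 8, Glud1, Slc38a3 and Slc38a4, were still higher in the hepatocyte-like clusters (7.44% of all genes) and 0 in the others (14.3%), and the intervals of Gls2 overlapped, at 102 (70.5 to 141) against 124 (118 to 130). Glul was at 137 (100 to 182) against 118 (112 to 125) there, and Rhbg at 52.9 (31.4 to 83.7) against 39.1 (35.6 to 42.8). The clusters were built on these counts, so this is a description. The 2 clusters of low hepatocyte signal at 0 h had median depths of 2663 and 8131 counts, and the part of free DNA in them was not tested. The first had more summed endothelial marker signal than the library (log2 ratio 1.19), the second more Kupffer and immune signal (1.67). At 48 h the low clusters had 2.01 for endothelial and 2.70 for Kupffer and immune markers. The low cluster at 72 h had 1.16 and 1.11 for these lists.

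Across nuclei of the same library, Glul, Slc1a2 and Oat varied together at 0 and 48 h, and r with Gls2 was below 0 for each of them at 10000 counts. These are Pearson correlations over nuclei that share 1 library, given with no p. In nuclei thinned to 10000 counts, r between Glul and Slc1a2 was 0.390 at 0 h and 0.456 at 48 h, between Glul and Oat 0.307 and 0.410, and between Slc1a2 and Oat 0.305 and 0.319. Against Gls2, Glul had -0.144 and -0.118, Oat had -0.204 and -0.131, and Slc1a2 had -0.140 and -0.108. Rhbg had r between -0.003 and 0.048 with the others, too near 0 to read. At 2000 counts, the depth that all 4 libraries allowed, r between Glul and Slc1a2 was 0.170, 0.242, 0.035 and 0.021 at 0, 48, 72 and 96 h (3719, 3579, 3620 and 2484 nuclei), and between Glul and Oat 0.106, 0.214, 0.064 and 0.021. Between Glul and Gls2 it was -0.068, -0.061, -0.014 and -0.001, and between Slc1a2 and Gls2 it was -0.046 at 0 h and between -0.000 and 0.001 at the later times. At 72 and 96 h values this near 0 in sparse counts are no finding. Glul had on average 0.245, 0.245, 0.22 and 0.259 counts per nucleus at 0, 48, 72 and 96 h, and Slc1a2 0.226, 0.282, 0.189 and 0.161. The Glul counts were thus about as sparse in all libraries, and the cause of the lower r was not tested. Without thinning each of these pairs was positive in each library (Glul with Gls2 0.163 at 0 h).

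**Figure D5:**
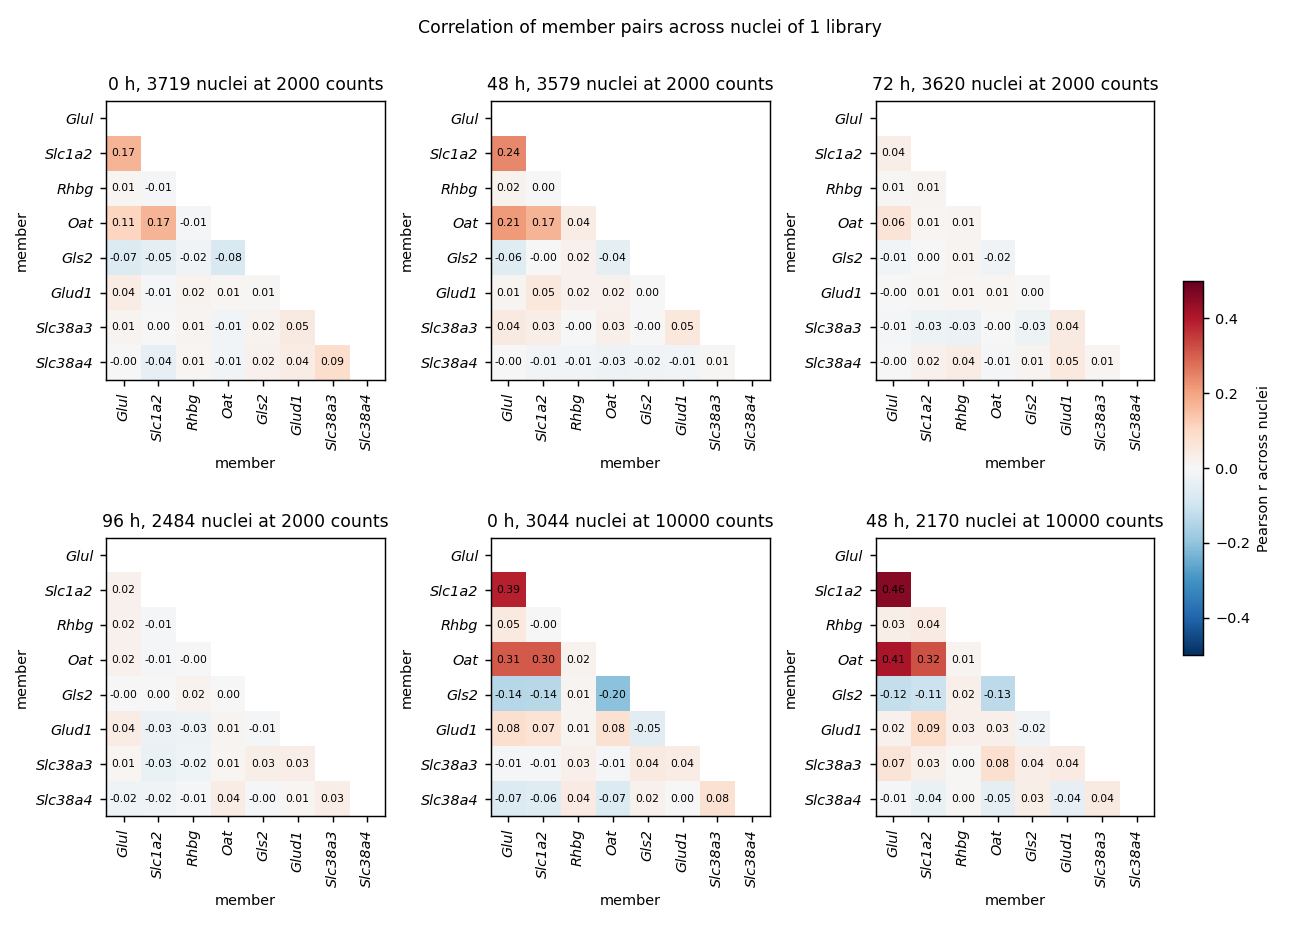
Pearson's r between each pair of the 8 genes across nuclei, at 2000 counts per nucleus in the 4 libraries and at 10000 counts at 0 and 48 h (red positive, blue negative). Glul, Slc1a2 and Oat form the positive block at 0 and 48 h, and the Gls2 row is blue against them at 10000 counts.

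Among 3812 genes with at least 0.1 counts per thinned nucleus in each library, no peak in common with Glul and a start at least 1 Mb away, the 5 whose counts followed Glul most closely by mean r over the 4 libraries were Slc1a2 (0.117), the cytochrome P450 gene Cyp2e1 (0.110), the peroxisomal thiolase gene Acaa1b (0.108), the pyruvate dehydrogenase kinase gene Pdk4 (0.103) and Oat (0.101). The median over the 3812 was -0.000 at the same depth. Cyp2e1 is itself a gene of the zone score, as is Hal in the list that follows. For Gls2, the 5 of 3787 were the ATP citrate lyase gene Acly (0.053), the histidine ammonia-lyase gene Hal (0.045), the fructose bisphosphatase genes Fbp1 (0.044) and Fbp2 (0.041), and Cps1 (0.041), the entry enzyme of the urea cycle. Fbp1 and Fbp2 had the same r at 0, 48 and 72 h (0.054, 0.041 and 0.043), so they are not read as separate signals. All these values are weak, and the order among them is not read.

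Of 55 further genes of glutamine, glutamate and proline metabolism and transport, 52 were matched and 51 passed the level filter. At 48 h 1 was at least 2-fold higher and 1 lower, at 72 h 4 and 2, and at 96 h 4 and 5, beside the shares of all genes given above (4.08% and 2.01% at 48 h). The median log2 ratio of the 51 was -0.00, 0.00 and 0.13. Gpt, the alanine aminotransferase gene, was lower at each later time, at 127, 43.7, 44.3 and 61.9 CPM over 9196, 4883, 4251 and 3742 bp (log2 ratios of -1.52, -1.5 and -1.02). Slc38a8, a glutamine transporter gene of the same family as Slc38a3, was at 8.88, 27.9, 46.4 and 9.31 CPM over 2446, 8729, 10764 and 835 bp. Slc6a19, a neutral amino acid transporter gene, was at 12.4, 23.4, 26.5 and 30, and Gad1, a glutamate decarboxylase gene, at 7.42, 14.2, 21.6 and 6.43. For these 3 the covered length rose with the level at 48 h.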

How the data were processed

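The deposited matrices hold, per the file headers, whole-number counts of transposase cut sites for each peak and barcode. For these counts the authors ran Cell Ranger ATAC, version 1.1.0 in the headers, on mm10, and peaks were called in each library on its own. The sources state no aligner settings. Totals per library and the number of nuclei are given in the report. The submitters' peaks and barcodes were used as they stood, and 0 columns of per-sample values were left unused.

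Barcodes with at least 1000 counts were summed. A peak counted for a gene if at least 1 bp touched the GENCODE vM21 gene body or 2000 bp upstream, and levels are CPM, over all counts in peaks of those barcodes. Log2 ratios used a pseudocount of 1. Intervals are exact 95% Poisson intervals on counts divided by 2, since a fragment gives 2 cut sites, and cover counting error only. Genes averaging at least 10 CPM were compared with a 2-fold threshold. With 1 library per time there was no test. Nuclei were thinned to 2000 counts for the zone score and correlations. Clusters came from TF-IDF, singular value decomposition (30 components) and Leiden clustering (resolution 0.5, 30 neighbours), run per library with scipy 1.17.1, scikit-learn 1.9.0 and leidenalg 0.10.2 under Python 3.11.15. Clusters whose summed hepatocyte markers were at least 2-fold below the library were called hepatocyte-low. No doublet caller was run. Leaving out the 5% deepest nuclei was an alternative. Near-equal regions had 1 peak in both libraries with lengths differing by at most 10%. Ratios and thinning were tested on simulated data.

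The 8 genes and the lists were chosen with earlier results of these data known. Named from the 55-gene list were the 4 with the largest absolute log2 ratio at 48 h and any past 2-fold at all 3 times, and for Glul and Gls2 the 5 genes with the highest mean r. Leaving out barcodes found in another library, thinning to 10000 counts and zone ratios in hepatocyte-like clusters were chosen after seeing the data.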

Additional observations from a re-analysis of the deposited data

How the results depend on the processing

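Leaving out low-hepatocyte clusters, a minimum of 3000 counts, all deposited barcodes, a pseudocount of 5 and setting the median of all genes to 0 left each count of genes past 2-fold as reported. Counting only peaks within 1000 bp of the start gave 2 higher (Slc1a2, Glud1) and 1 lower (Gls2) at 48 h, 1 higher (Slc1a2) and 1 lower at 72 h, which was Gls2 (-2.43) and no longer Slc38a4 (-0.49), and 3 lower (Gls2, Slc38a3, Slc38a4) at 96 h. Over all genes this setting called 6.41% higher and 2.43% lower at 48 h, 8.85% higher and 7.51% lower at 72 h, and 9.98% lower at 96 h. It takes whole peaks, so long peaks that split count as lower, and Slc1a2 had no peak at its GENCODE start at 0 h (0 CPM). It is not a measure of promoters. Counting each peak once per nucleus gave 1 higher (Slc38a4) at 48 h, 3 higher (Glud1, Slc38a3, Slc38a4) and 0 lower at 72 h, and 4 higher (Glul, Glud1, Slc38a3, Slc38a4) and 0 lower at 96 h, where over all genes 2.08%, 5.14% and 3.58% were higher at 48, 72 and 96 h. It reversed both 2-fold calls, Slc38a4 at 72 h (1.43) and Gls2 at 96 h (0.49), and turned smaller ratios too, among them Slc38a3 at 0.68, 1.38 and 2.01 against -0.27, -0.92 and -0.53. The cause was not tested. Regions of near-equal length gave 9 ratios, of which 6 moved, and turned Slc38a4 at 48 h (0.19) and Slc1a2 at 72 and 96 h (0.80 and 1.48).

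Correlations depended on depth. Without thinning, r at 0, 48, 72 and 96 h was 0.163, 0.087, 0.063 and 0.070 for Glul and Gls2, 0.671, 0.631, 0.171 and 0.171 for Glul and Slc1a2, 0.562, 0.556, 0.295 and 0.203 for Glul and Oat, and 0.179, 0.200, 0.083 and 0.110 for Oat and Gls2, so the sign reversed for both pairs with Gls2 at 0 and 48 h. At 10000 counts r at 0 and 48 h was -0.144 and -0.118, 0.390 and 0.456, 0.307 and 0.410, and -0.204 and -0.131 for the same pairs. At 1000 counts it was -0.035 for Glul and Gls2 at 0 h, and 0.129 and 0.119 for Glul and Slc1a2 at 0 and 48 h. The upper and lower 10% of nuclei by zone score gave Glul log2 ratios of 1.85, 2.52, 1.32 and 1.68, and Gls2 -1.27, -0.96, -0.78 and -0.46. Of 32 ratios 20 moved by more than the counting error of the 25% ratio. Slc1a2 was at 0.81 at 72 h and 0.69 at 96 h, and Slc38a3 was at -0.46 at 96 h. Gls2 at 96 h and Rhbg (0.33 at 72 h and -0.31 at 96 h) moved by less than that error. No paired analysis was possible because each time had 1 library. Depth limits the 72 and 96 h libraries most, with a median of 4841 and 3681.5 counts per nucleus.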
